A study of Mus musculus with 12 samples.

Results

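Kidney organoids measured immediately after they were put together, before any culture, were compared with the E11.5 embryonic kidney, the rudiment at the embryonic day in its name. The groups were chosen by their sample titles and held 4 of the 12 arrays of the series, namely 3 organoid arrays and 1 kidney array. The E11.5 kidney was the whole kidney without the ureter of wild type ICR mice, an outbred strain. The organoids joined nephron progenitors and ureteric bud, both made from mouse embryonic stem cells with a B6 and 129SV background, with stromal progenitors of ICR wild type E11.5 kidney. The cells of organoid and kidney therefore differed in origin and in strain at once, and only the organoids had just been put together. These differences cannot be told apart. Both kinds of tissue were also measured after 7 days of culture with Matrigel in serum-containing medium, on 1 kidney array and 3 organoid arrays. Total RNA was labelled with Cy3 and hybridised to one-colour Agilent arrays. A gene's level is the log2 of its background-subtracted signal minus the 75th percentile of the array, so that a level of 0 is the signal that 75% of probes did not exceed. Levels of different genes come from different probes and are not compared with each other.

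At this stage the kidney is built from interacting compartments. Nephron progenitors cap the tips of the ureteric bud and secrete GDNF, whose receptor RET sits on tip cells and drives their branching. The bud returns WNT9B and WNT11, which keep the progenitors and start their conversion to epithelium, and stromal progenitors marked by FOXD1 surround both and supply retinoic acid. Vessels, macrophages and blood cells enter the rudiment from the embryo.

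The organoid arrays had a 75th percentile of signal of 126 to 138 and the E11.5 kidney array one of 224, and 50.6% to 54.2% against 59.8% of 55681 probes were well above background. The organoid arrays were thus dimmer, which limits what they could detect, and 1068 genes were well above background on the kidney array but on no organoid array, against 85 genes for which only the 3 organoid arrays were. Among 15034 genes above background on all 3 organoid arrays the levels of any pair of organoid arrays correlated at 0.994 to 0.995 across genes, and each correlated with the kidney at 0.963 to 0.966. The kidney array and organoid replicates 1 and 2 shared slide 1, and organoid replicate 3 lay on slide 2. The labels do not say that the organoid replicates were separate cultures, so p-values measure only a spread between arrays. That spread and the standard errors were pooled from the 3 uncultured organoid arrays and the 3 arrays of organoids cultured for 7 days. The lone kidney array was assumed to vary like organoid replicates.

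Of 17167 genes tested, 2997 (17.46%) were higher and 2666 (15.53%) lower in uncultured organoids than in E11.5 kidney at an adjusted p under 0.05 (limma, two-sided, Benjamini-Hochberg), together 32.99%. More lower than higher genes differed at least 2-fold, 1396 against 737, but this balance depends on which genes entered the test. It took in the 1068 genes well above background on the kidney array alone, against 85 the other way. Over genes well above background on every array of both groups, 3286 were higher and 2287 lower at any size of difference. Their 2-fold counts were not taken. The median over all tested genes was 0.036. Higher genes made up 52.9% of calls, and 67.2% when normexp was used for background correction in place of the scanner's. Differences below are log2 values, organoid minus kidney, with the standard error of the fit, and folds are given as lower bounds where the dimmer group was not well above background on any of its arrays. Genes are called higher or lower only where they passed this test. Counts in gene lists are to be read against these shares of all genes, and a share near them is no result about a list.

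Genes of blood, immune and endothelial cells, none of them a cell type the organoid was assembled from, made up 11 of the 12 largest losses. Macrophage and leukocyte genes were 6 of them, Cx3cr1, C1qc, Trem2, Tyrobp, Aif1 and Cyth4. Embryonic red cell genes followed with Hbb-bh1, Hba-x and Rhd. Mmrn1 (-6.86 ± 0.22, at least 29.4-fold) and Gimap1 (-6.09 ± 0.41, at least 16.5-fold) made up the rest of the 11. Which of these cell types the RNA of Mmrn1 and Gimap1 came from was not tested. In cultured E11.5 kidney Mmrn1 stood at -6.70 and Gimap1 at -0.70, against 0.47 and -0.37 in fresh E11.5 kidney. In bulk RNA, fewer cells of a type and less RNA per cell cannot be told apart, here and in each list that follows. The remaining gene was Krt23, an epithelial keratin, which stood at 0.33 on the kidney array and at -6.41, -6.45 and -6.73 on the organoid arrays, where it was not well above background (-6.86 ± 0.16, at least 26.8-fold, adjusted p = 6.28e-05).

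The 12 largest gains held muscle and tubule genes. Myl1, a myosin light chain of skeletal muscle, and Myog, a transcription factor of muscle differentiation, were among them. Kap, Mep1a and Hsd3b4 are genes of the proximal tubule, a segment that has not formed at E11.5, and Slc15a2, a peptide transporter (4.87 ± 0.15, at least 7.93-fold), and Prlr, the prolactin receptor (4.79 ± 0.26, at least 11.3-fold by the probe used, with probe differences of 0.37 and 4.79), are expressed in tubules too. Gm11335 (6.04 ± 0.34, at least 17.3-fold), Tcerg1l (4.83 ± 0.20, at least 19.7-fold), AA388235 and 4930442E04Rik are little characterised. AA388235 stood at -7.20 in the kidney and at -1.73, -1.56 and -1.76 in the organoids (5.52 ± 0.19, at least 12.4-fold, adjusted p = 0.000157), and stayed at -1.56, -1.78 and -1.31 in organoids cultured for 7 days, while cultured E11.5 kidney remained at -6.97. By contrast 4930442E04Rik was at -2.27, -2.52 and -2.08 before culture and at -7.38, -7.25 and -7.28 after it, against -7.35 in E11.5 kidney (5.05 ± 0.18, at least 8.10-fold, adjusted p = 0.000157). The organoid and kidney values of both genes did not overlap.

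**Figure D1:**
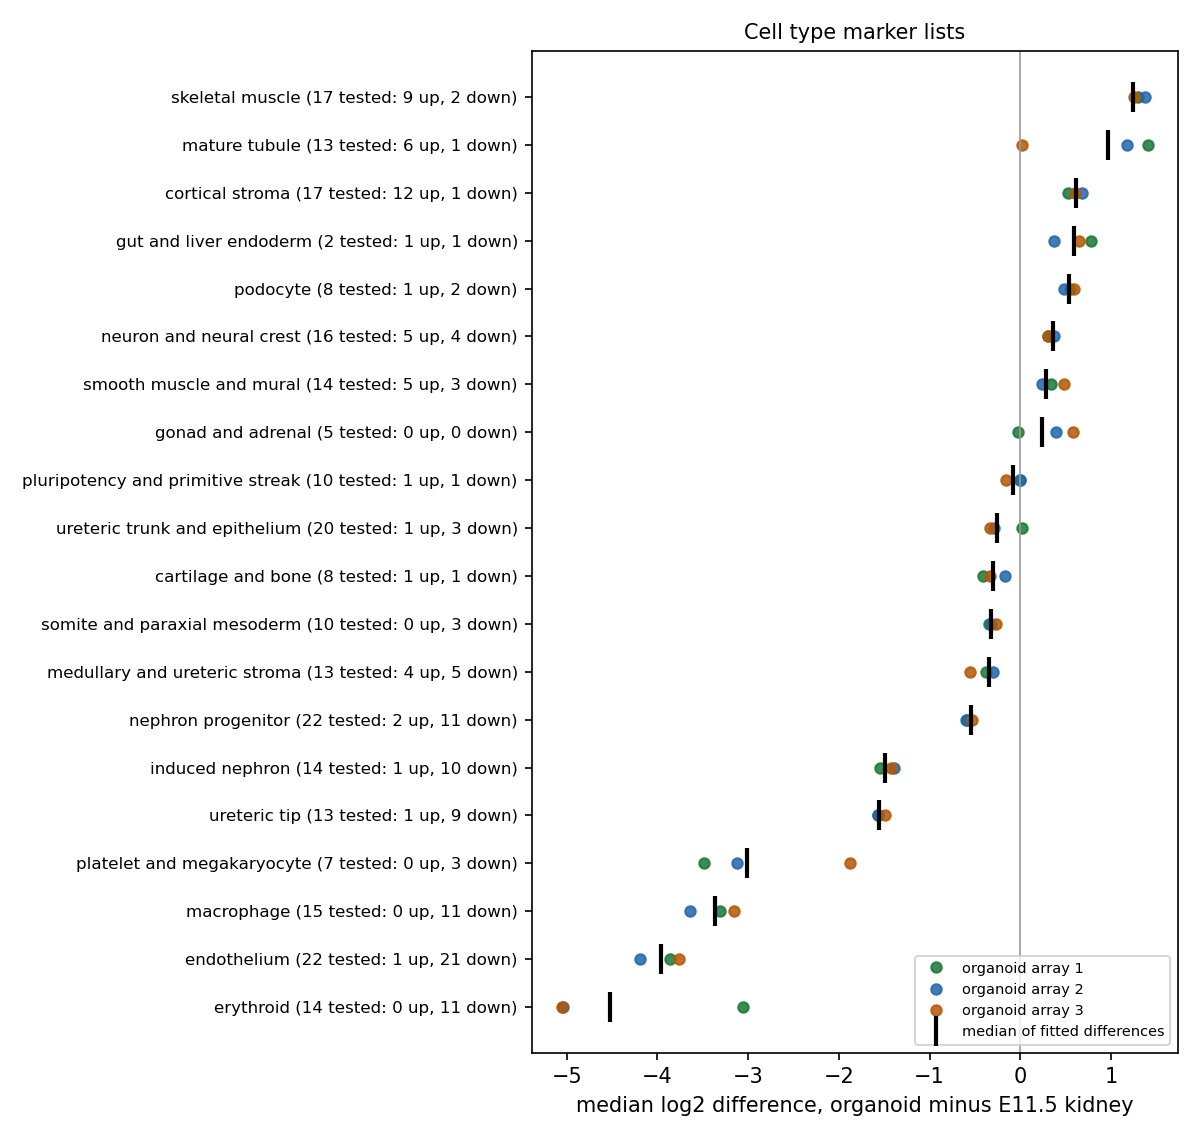
Median log2 difference between uncultured organoid arrays and the E11.5 kidney array (x axis) over the tested genes of each cell type marker list (y axis, with counts of genes that passed the test), with 1 dot for each organoid array and a bar for the median of the fitted differences. Erythroid, endothelial and macrophage lists lie at medians of -4.52, -3.96 and -3.37, and cortical stroma and skeletal muscle at 0.62 and 1.24.

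Nephron progenitor genes were more often lower than higher. Of 22 progenitor genes, all tested, 2 were higher and 11 lower, with a median of -0.55 beside 0.036 over all genes. Eya1, a co-activator that keeps the progenitor state, stood at 5.93 on the kidney array and at 6.11, 6.01 and 6.07 on the organoid arrays, a difference of 0.14 ± 0.10 that did not pass the test (adjusted p = 0.336). Six2, the defining factor of self-renewing progenitors, was at 6.05 in the kidney and at 5.01, 5.45 and 5.46 in the organoids. All 3 organoid values lay below the kidney (-0.74 ± 0.22, 1.68-fold, adjusted p = 0.0479), but the call was lost under 10 of 17 alternatives, among them leaving out any 1 organoid array (adjusted p 0.00366 to 0.116 over the alternatives). Cited1, which marks the least differentiated cap cells, fell from 3.76 to 2.26, 2.16 and 2.26 (-1.53 ± 0.34, 2.89-fold, adjusted p = 0.0177). Gdnf, the signal to the ureteric tip, fell from 3.47 to 1.07, 0.66 and 0.88 (-2.60 ± 0.17, 6.06-fold, adjusted p = 0.00061). Crym, which encodes a thyroid hormone binding protein of cap cells, was lower by 3.87-fold (-1.95 ± 0.21) and Hoxc11, a gene of the kidney's own Hox code, by 2.50-fold (-1.32 ± 0.18). Dpf3 was one of the higher genes, but its probes above background disagreed (-1.58 and 0.74).

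Genes that mark the first steps of nephron formation were mostly lower. Of 14 genes of induced nephrons 10 were lower and 1 higher, with a median of -1.49 (-1.55, -1.39 and -1.42 on the organoid arrays). Wnt4, the inducer of epithelial conversion, was at 3.52 in the kidney and at 1.27, 0.89 and 1.47 in the organoids (-2.31 ± 0.22, 4.96-fold, adjusted p = 0.00142). Lhx1, a transcription factor of the renal vesicle, was at 0.60 and at -1.56, -1.71 and -2.06 (-2.37 ± 0.22, 5.19-fold, adjusted p = 0.00131). All 3 organoid values lay well below the kidney value for both genes. Bmp2, a signal of the BMP family, was lower by 9.42-fold (-3.24 ± 0.23), Greb1 by 7.29-fold (-2.87 ± 0.18), the G1 cyclin gene Ccnd1 by 6.06-fold (-2.60 ± 0.21) and the cadherin gene Cdh4 by 3.64-fold (-1.86 ± 0.20). Pax8, a factor of nephron commitment, differed by -0.64 ± 0.15 (adjusted p = 0.0239), a call lost without organoid replicate 3. The higher member was Osr2, a factor of kidney mesenchyme (1.02 ± 0.17).

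**Figure D2:**
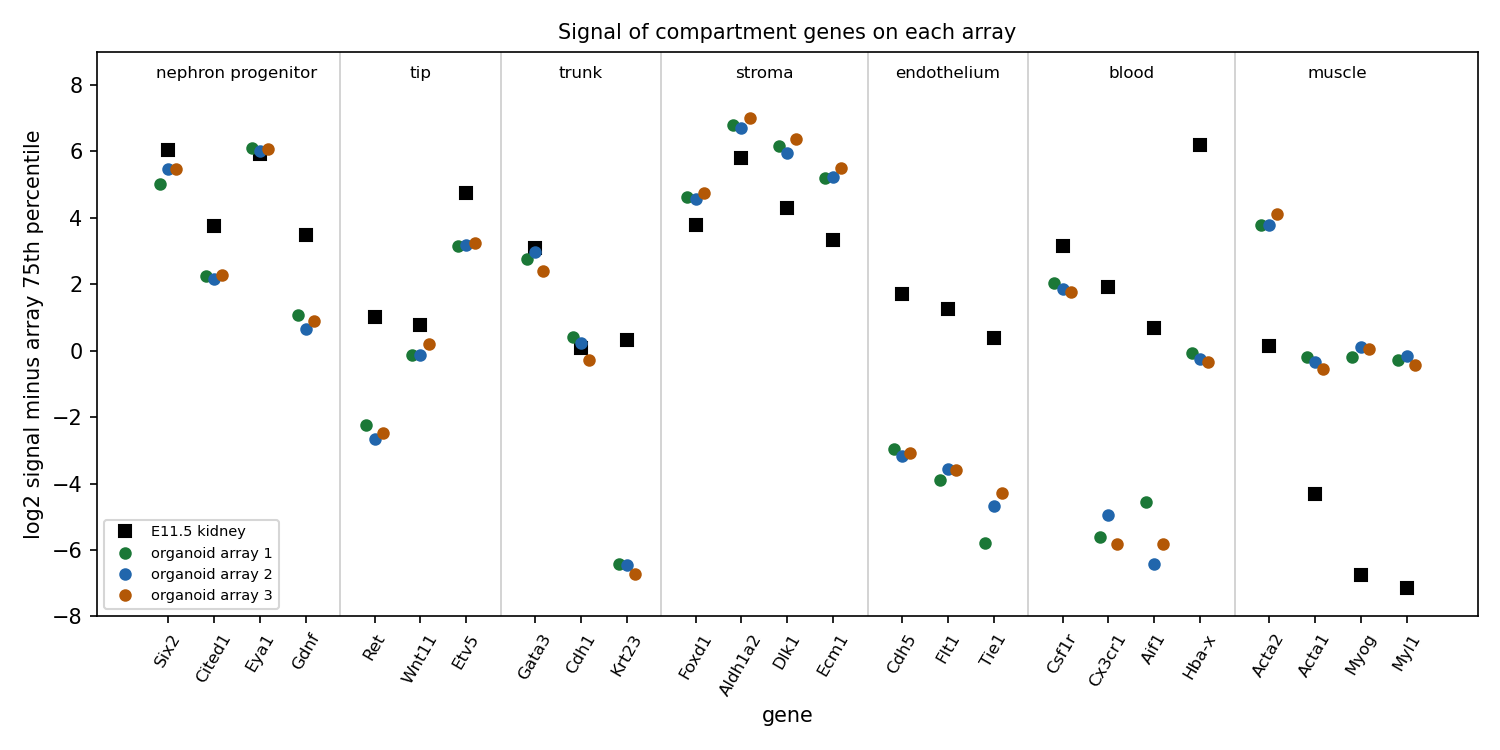
Level (y axis, log2 signal minus the array's 75th percentile) of genes of 7 compartments (x axis) on the E11.5 kidney array (black squares) and on the 3 uncultured organoid arrays (coloured dots). Heights of different genes are not comparable. Eya1, Gata3 and Cdh1 did not pass the test, while Ret, Gdnf, endothelial and blood genes lie below it and Acta2, Acta1, Myog and Myl1 above it.

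Ureteric tip genes were mostly lower, while most trunk genes did not pass the test. Of 13 tip genes 9 were lower and 1 higher (median -1.56, or -0.95 with genes below background set at their bound), whereas of 20 trunk and general epithelial genes 3 were lower, 1 was higher and 16 did not pass the test (median -0.26). Ret, the GDNF receptor of tip cells, stood at 1.01 on the kidney array and at -2.23, -2.67 and -2.49 on the organoid arrays (-3.47 ± 0.22, 11.1-fold, adjusted p = 0.00056). Etv5, a transcription factor switched on by RET, was at 4.75 and at 3.14, 3.18 and 3.25 (-1.56 ± 0.11, 2.94-fold, adjusted p = 0.000714). For both genes the organoid arrays lay close together and well below the kidney. Wnt11, the tip's own Wnt signal, differed less (-0.77 ± 0.15, 1.71-fold, adjusted p = 0.0124). Sox8, a transcription factor that acts in RET-driven branching, was lower by 7.54-fold (-2.91 ± 0.52, above background on 1 of 3 organoid arrays), and the receptor tyrosine kinase gene Ros1 by at least 4.60-fold (-3.19 ± 0.56), a call lost with normexp (-0.19, adjusted p = 0.112, range over the alternatives 0.000879 to 0.112). The higher tip gene was Adamts18 (0.70, lost without organoid replicate 2, lost with the mean of probes, with probes from 0.27 to 0.70).

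In the trunk list the epithelial cadherin Cdh1 stood at 0.065 in the kidney and at 0.40, 0.23 and -0.27 in the organoids (0.056 ± 0.27, adjusted p = 0.89). Gata3, a factor of the nephric duct and bud, was at 3.09 and at 2.77, 2.97 and 2.38 (-0.38 ± 0.24, adjusted p = 0.262). The kidney value lay within the organoid range for Cdh1 and above it for Gata3, and neither gene passed the test. Wnt9b, the bud signal that induces nephrons, was lower (-1.21 ± 0.31, 2.31-fold, adjusted p = 0.028), a call lost without organoid replicate 3. Grhl2, a regulator of epithelial junctions, was lower by 2.12-fold (-1.08 ± 0.21, adjusted p = 0.0128), and Krt23, described above, was the third.

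The signalling loop between mesenchyme and bud showed losses on both sides. Of 16 genes of GDNF-RET signalling 9 were lower and 3 higher (median -0.80). The ligand Gdnf and the receptor Ret were both lower, as given above, but the co-receptor gene Gfra1, which cap cells and tip cells share, was at 0.10 in the kidney and at -0.13, -0.20 and -0.10 in the organoids and did not pass the test (-0.25 ± 0.15, adjusted p = 0.257). Among targets and modulators, Etv4, the partner of Etv5, was lower by 3.70-fold (-1.89 ± 0.16) and Grem1, a BMP antagonist that permits budding, by 2.87-fold (-1.52 ± 0.13), a call lost with normexp background correction (-0.077, adjusted p = 0.446, range over the alternatives 0.00033 to 0.446). Fgf7, a stromal growth factor for the bud, was higher (1.12 ± 0.29, adjusted p = 0.0305), a call lost without any 1 organoid array, and Gfra2 (0.73) and Fgfr2, described with the FGF genes, were higher too. In the list of Wnt genes 8 of 17 were lower and 2 higher (median -0.52), with Lef1, a transcriptional partner of beta-catenin, at 2.35 in the kidney and at 0.44, 0.24 and -0.014 in the organoids (-2.13 ± 0.19, 4.37-fold, adjusted p = 0.00116). Wnt6 (-1.58 ± 0.38, 2.99-fold) and Sfrp2, a secreted Wnt inhibitor (-1.34 ± 0.15, 2.53-fold), were lower too, Wnt6 not without organoid replicate 3, and Wnt5a (0.50, lost without organoid replicate 1 or 3) and Sfrp1 (0.77) were higher.

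FGF genes were divided, with 5 lower and 3 higher of 13 tested (median -0.29). Fgf9, a ligand that maintains progenitors, was lower (-0.78 ± 0.14, 1.72-fold) and Fgf20, which acts beside it, did not pass (-0.15 ± 0.16, adjusted p = 0.505). Of the feedback inhibitors, Spry4 (-1.58 ± 0.33) and Spry1 (-0.95 ± 0.11) were lower and Spry2 (1.01 ± 0.17) higher. The other lower genes were Fgf8 (-0.76, lost without any 1 organoid array, lost with the mean of probes) and Fgf1 (-0.72, lost with normexp, of opposite sign with the mean of probes), and the other higher ones Fgf7 and the receptor Fgfr2 (0.57), whose probes disagreed (-0.27 and 0.57). Of the 6 genes by which progenitors and bud adhere, 3 were lower and none higher by limma (1 at an unadjusted p under 0.05). Frem2 (-1.46 ± 0.13, 2.74-fold) and Frem1 (-1.29 ± 0.25, 2.44-fold), matrix proteins at the epithelial surface, were among them with Npnt (-0.73, lost without organoid replicate 2 or 3, lost with normexp), whereas the integrin gene Itga8 of the mesenchyme, at 2.58 in the kidney and 2.77, 2.91 and 2.85 in the organoids, did not pass (0.26 ± 0.10, adjusted p = 0.103).

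Cortical stroma genes were mostly higher. Of 17 genes, all tested, 12 were higher and 1 was lower, with a median of 0.62 (0.52, 0.68 and 0.60 on the organoid arrays). Foxd1, the defining factor, stood at 3.79 in the kidney and at 4.64, 4.57 and 4.74 in the organoids (0.86 ± 0.14, 1.81-fold, adjusted p = 0.00652). Aldh1a2, which makes retinoic acid, was at 5.81 and at 6.78, 6.71 and 7.0 (1.02 ± 0.14, 2.03-fold, adjusted p = 0.00371). Meis1 differed by 0.59 ± 0.11 (1.51-fold). All organoid values of these 3 genes exceeded the kidney value. Larger gains were measured for Dlk1, an imprinted gene of immature mesenchyme, which rose from 4.30 to 6.15, 5.96 and 6.37 (1.86 ± 0.17, 3.63-fold, adjusted p = 0.00131), and for Ecm1, a matrix protein, from 3.33 to 5.20, 5.24 and 5.50 (1.99 ± 0.20, 3.96-fold, adjusted p = 0.00161). The lower member was Fibin (-1.45 ± 0.15, 2.73-fold). Crabp1, a retinoic acid binding protein, differed by 1.19 ± 0.37 without passing (adjusted p = 0.0531). Only 4 of the higher genes passed a 2-fold threshold as well, and 4 were called within slide 1 alone.

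Genes of deeper stroma changed in both directions. Of 13 genes of medullary and periureteric stroma 4 were higher and 5 lower (median -0.34), counts that were 2 and 2 without organoid replicate 3 and 2 higher without organoid replicate 1. Tbx18, a factor of ureteric mesenchyme, was lower (-0.80 ± 0.19, 1.74-fold) and Bmp4, a signal of the same mesenchyme, higher (0.70 ± 0.19, 1.62-fold), and both calls were lost without organoid replicate 1 or 3. Gli1, a readout of hedgehog signalling, was lower (-1.48 ± 0.36, 2.79-fold), a call lost without organoid replicate 3, and the homeobox gene Alx1 was lower as well (-1.15 ± 0.14, 2.22-fold). Smoc2, a matrix protein, was higher (1.06 ± 0.22, 2.08-fold). The other higher genes were Wnt5a (0.50, lost without organoid replicate 1 or 3) and Cdkn1c (0.85), and the other lower ones Lef1 and Tbx3 (-0.71, lost without organoid replicate 2 or 3). Retinoic acid genes showed no common shift, with 4 higher and 5 lower of 15. Against the gain of Aldh1a2, Aldh1a1, a second enzyme of this step, was at 0.85 in the kidney and at -1.73, -2.35 and -2.52 in the organoids (-3.05 ± 0.34, 8.28-fold, adjusted p = 0.00214). The other higher genes were Rarb (0.46, lost without organoid replicate 2 or 3, lost with the mean of probes), Dhrs3 (0.79) and Rara (0.62, lost with the mean of probes, with probes from 0.018 to 0.62), and Rarg (-0.79), Rbp4 (-1.22, lost with normexp) and Cyp26a1 (-2.20, of opposite sign with normexp) were among the other lower ones.

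Smooth muscle genes changed in both directions. Of 14 tested smooth muscle and mural cell genes 5 were higher and 3 lower (median 0.28), and the higher ones encode contractile proteins. Acta2, smooth muscle actin, was at 0.14 in the kidney and at 3.78, 3.78 and 4.10 in the organoids (3.74 ± 0.19, 13.4-fold, adjusted p = 0.000384). Myh11, the smooth muscle myosin, was not well above background in the kidney and stood at -3.76, -3.99 and -3.86 in the organoids (3.12 ± 0.22, at least 2.72-fold, adjusted p = 0.000707). Cnn1 (2.14 ± 0.25, 4.39-fold), Actg2 (1.87 ± 0.21, 3.66-fold) and Tagln (1.65 ± 0.23, 3.13-fold), which encode a calponin, an actin and a calponin relative, rose too. The pericyte genes Rgs5 (-0.97 ± 0.20) and Cspg4 (-0.82 ± 0.11) were lower, with Notch3 (-0.44, lost without organoid replicate 1 or 3).

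Skeletal muscle genes were raised, with 9 higher and 2 lower of 17 tested, 5 others untested and a median of 1.24. Myog stood at -6.75 on the kidney array, where it was not well above background, and at -0.18, 0.12 and 0.052 on the organoid arrays (6.75 ± 0.86, at least 39.6-fold, adjusted p = 0.00319). Myl1 was at -7.14 and at -0.27, -0.16 and -0.42 (6.86 ± 0.93, at least 32.6-fold, adjusted p = 0.00384). The 3 organoid arrays lay close together for both genes, far above the kidney. Acta1, skeletal actin, was at -4.31 and at -0.19, -0.35 and -0.56 (3.94 ± 0.22, 15.3-fold, adjusted p = 0.000417), Myh3, the embryonic myosin, differed by 4.0 ± 1.16 (adjusted p = 0.0425, lost without any 1 organoid array), and Myod1, the determination factor, by 1.24 ± 0.19 (2.37-fold, adjusted p = 0.00526). Mef2c, a factor that muscle shares with endothelium and heart, was lower (-2.22 ± 0.30, at least 3.82-fold), with Tnni1 (-0.90), but the call of Mef2c was lost with normexp (-0.11, adjusted p = 0.337, range over the alternatives 0.00104 to 0.337). After 7 days of culture Myog stood at -3.23, -4.77 and -5.80 and Myl1 at -1.29, -3.56 and -3.85 in organoids, and at -6.20 and -5.24 in E11.5 kidney. Acta1 instead was higher after culture, at 2.77, 2.68 and 2.34 in organoids and at 1.40 in E11.5 kidney. The untested muscle genes were not well above background on every array of either group.

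The promoters of Myog and Acta1 are shown because E-boxes (CANNTG) are bound by the MYOD family, of which Myog is a member, and CArG boxes by serum response factor at actin genes. The RefSeq stretches (GRCm38.p6) end at the base before the start and run 5′ to 3′ on the gene's strand, with matches in capitals, for Myog at chr1:134289854-134290003 on the plus strand (E-boxes in capitals) and for Acta1 at chr8:123894776-123894875 on the minus strand (CArG box in capitals).
Myog: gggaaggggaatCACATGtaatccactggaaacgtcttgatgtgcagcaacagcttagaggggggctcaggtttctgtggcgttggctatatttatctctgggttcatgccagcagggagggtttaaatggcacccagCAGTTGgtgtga
Acta1: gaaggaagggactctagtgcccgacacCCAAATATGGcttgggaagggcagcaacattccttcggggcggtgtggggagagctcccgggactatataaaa
Counted from -1 at the base before the start, the Myog matches lie at -138 to -133 and at -12 to -7, and the Acta1 match at -73 to -64. Both strands were searched over the 250 bases before each start. E-boxes were found for 13 of 15 tested muscle genes with a promoter in the table and in 66.2% of all 32851 promoter windows, and CArG boxes for 2 of 15 and in 1.47%. Of 10 tested smooth muscle and mural genes with a promoter in the table, 0 held a CArG box in this window. An E-box is a short and common motif, and a match describes letters, not binding.

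Endothelial genes were almost all lower. Of 22 endothelial genes, all tested, 21 were lower and 1 higher, with a median of -3.96 (-3.87, -4.19 and -3.76 on the organoid arrays). Cdh5, the cadherin of endothelial junctions, was at 1.72 in the kidney and at -2.96, -3.18 and -3.09 in the organoids (-4.80 ± 0.58, 27.8-fold, adjusted p = 0.00268). Flt1, a VEGF receptor, was at 1.26 and at -3.89, -3.56 and -3.59 (-4.94 ± 0.41, 30.7-fold, adjusted p = 0.00106). Pecam1 was lower by 4.36-fold (-2.12 ± 0.49), and the angiopoietin receptors Tie1 (-5.30 ± 0.72, 39.4-fold, above background on 1 of 3 organoid arrays) and Tek (-4.91 ± 0.32, at least 7.68-fold) and the factor Sox17 (-4.98 ± 0.91, at least 23.5-fold) were lower too. For each of these 6 genes every organoid value lay below the kidney value.

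Kdr, the main VEGF receptor, was the exception, at 3.07 in the kidney and 3.67, 3.52 and 3.53 in the organoids (0.50 ± 0.12, 1.41-fold, adjusted p = 0.0236). Its probes disagreed, since the 2 that were above background gave differences of -2.47 and 0.50, and the mean over its probes was lower in organoids (-0.99, adjusted p = 0.0242). Without organoid replicate 1 the call was lost. After 7 days of culture the endothelial list stood at -0.21, -1.06 and -0.28 in organoids and -0.15 in E11.5 kidney, as medians relative to fresh E11.5 kidney.

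Most macrophage genes were lower. Of 15 tested genes 11 were lower and none higher by limma, 0 at an unadjusted p under 0.05 (median -3.37, or -2.84 with genes below background at their bound), and 8 were well above background in the kidney but on no organoid array. Cx3cr1, the fractalkine receptor, was at 1.92 in the kidney and at -5.60, -4.93 and -5.83 in the organoids (-7.38 ± 2.03, at least 80.7-fold, adjusted p = 0.0364). Aif1, which encodes IBA1, was at 0.68 and at -4.55, -6.43 and -5.83 (-6.28 ± 0.66, at least 34.2-fold, adjusted p = 0.00182). Mrc1, the mannose receptor, was lower by at least 15.47-fold (-5.93 ± 0.78). The calls of Cx3cr1, C1qc (-6.89 ± 1.98, at least 38.3-fold), Trem2 (-6.70 ± 1.97, at least 33.7-fold), Cyth4 (-6.58 ± 1.64, at least 19.8-fold) and Tyrobp (-6.39 ± 1.91, at least 32.6-fold) were each lost without any 1 organoid array and with slide as a block, fits in which 6 genes of the list were lower. Their standard errors took in cultured organoids, on which Cx3cr1 ran at -6.73, -0.94 and -2.13. When both groups were fitted on their 4 arrays alone, 13 of the list's genes were lower. Csf1r, the receptor that macrophages depend on, was lower by the probe used (3.14 against 2.05, 1.86 and 1.77, -1.24 ± 0.16), but its 3 probes above background gave differences between -2.89 and 0.041.

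Red cell RNA was lower, and unevenly so. Of 14 erythroid genes 11 were lower (median -4.52, and -3.05, -5.04 and -5.05 on organoid arrays 1, 2 and 3). Hba-x, an embryonic alpha-like globin, stood at 6.19 in the kidney and at -0.069, -0.24 and -0.33 in the organoids (-6.40 ± 0.14, 84.6-fold, adjusted p = 6.28e-05). Hbb-bh1, an embryonic beta-like globin, was at 5.94 and at -0.46, -0.44 and -0.63 (-6.45 ± 0.52, 87.5-fold, adjusted p = 0.000968). These primitive globins agreed closely among organoid arrays. Definitive globins did not, since Hba-a2 stood at 8.93 in the kidney and at 7.72, 5.09 and 4.03 in the organoids (-3.32 ± 1.41, adjusted p = 0.12) and Hbb-bt at 5.71 and at 5.66, 2.48 and 0.79 (-2.73 ± 1.83, adjusted p = 0.292), and neither passed. Organoid replicate 1 was highest for both. Alas2, the first enzyme of haem synthesis in red cells, ran in the same order over the arrays at -1.04, -3.78 and -5.15, against 1.26 in the kidney (-4.58 ± 1.40, 24.0-fold, adjusted p = 0.0492), was above background on 2 of 3 organoid arrays, and lost its call without organoid replicate 2 or 3. Rhd, a Rhesus blood group gene at 0.43 in the kidney, was not well above background on any organoid array (-6.04 ± 0.92, at least 28.5-fold).

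Platelet genes were lower for 3 of 7 tested (median -3.01). The others that passed were Itga2b (-1.93, of opposite sign with normexp) and Gp9 (-4.15, lost without organoid replicate 1). Treml1, a platelet receptor, was at 0.10 in the kidney and at -3.39, -3.03 and -2.33 in the organoids (-3.01 ± 0.38, 8.07-fold, adjusted p = 0.00304). Pf4, a platelet chemokine, was at 2.43 and at -1.09, -1.50 and 0.55 and did not pass (-3.10 ± 1.20, adjusted p = 0.0957). Organoid replicate 3 was highest for both, unlike for red cell genes.

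Organoid replicate 3 was set against replicates 1 and 2 over the 15034 genes above background on all 3 arrays, without a test. It was at least 2-fold higher for 21 genes and at least 2-fold lower for 70. The 5 genes in which it was lowest were the globins Hbb-b1, Hbb-b2, Hbb-bt, Hba-a2 and Hba-a1, by 3.53, 3.35, 3.28, 2.37 and 2.26 below the mean of the other two. The 5 in which it was highest were Zfand4 (by 3.06), Kif14 (by 2.82), Catsperg2 (by 2.43), Gm20604 (by 2.05) and Pf4 (by 1.84). Kif14, a mitotic kinesin, stood at -3.76, -2.88 and -0.50 on organoid arrays 1, 2 and 3, and Zfand4 at -3.64, -3.38 and -0.45.

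Neural genes changed in both directions. Of 16 tested neuronal and crest genes 5 were higher and 4 lower (median 0.36), with 3 higher without organoid replicate 2 or 3. Nefm, a neurofilament, was at -0.15 in the kidney and at 2.81, 2.86 and 3.09 in the organoids (3.07 ± 0.28, 8.37-fold, adjusted p = 0.00126). The neuronal tubulin Tubb3 (1.48 ± 0.28, 2.79-fold) and the granule protein gene Chga (2.01 ± 0.41, 4.02-fold) were higher with Nefm, and Gap43, a protein of growing axons, was lower (-1.98 ± 0.46, 3.94-fold). Dbh, the noradrenaline enzyme, was at -0.27 and at -2.58, -2.88 and -3.10 and did not pass (-2.58 ± 0.80, adjusted p = 0.0511), nor did Sox10, a crest and glial factor (-0.83 ± 0.27, adjusted p = 0.0573). The other higher genes were Nefl (1.90, lost without any 1 organoid array) and Elavl3 (1.0, lost without organoid replicate 2 or 3).

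Genes of mature tubules were detected in organoids that had not been cultured, but most were detected in E11.5 kidney too. Only 3 of the 13 tested members were not well above background on the kidney array. Of 13 tested members 6 were higher and 1, Slc22a8, lower (-3.09 ± 0.30, of opposite sign with normexp), with a median of 0.97 (1.41, 1.18 and 0.018 on organoid arrays 1, 2 and 3). Kap, an androgen-regulated gene of the proximal tubule, was at -6.08 in the kidney, not well above background, and at 0.11, -0.48 and -2.07 in the organoids (5.27 ± 0.76, at least 22.6-fold, adjusted p = 0.00467). Slc34a1, the phosphate transporter, was at -7.36 and at -1.86, -2.25 and -3.88 (4.70 ± 0.72, at least 6.27-fold, adjusted p = 0.0057), but its probes above background disagreed in size (0.44 and 4.70), and the bound holds for the probe used. In both genes organoid replicate 1 was highest and replicate 3 lowest, and all 3 lay above the kidney. Mep1a (-0.90, -1.89 and -3.45), Hsd3b4 (-0.62, -1.20 and -2.59), Hnf4a (-1.80, -2.44 and -3.52) and Miox (-0.14, -0.63 and -1.76) held the same order and were higher too, Miox not without organoid replicate 2. Mep1a and Hsd3b4 are not members of the list. The order was not general, since not every higher gene of the list held it. Prlr (-1.96, -1.79 and -1.67) and Slc15a2 (-2.34, -2.15 and -2.48), given above, did not hold it either.

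These genes rise steeply in normal kidney after E11.5, and the P0 kidney array, from the day of birth, showed Kap at 7.17 and Slc34a1 at 5.90. Relative to fresh E11.5 kidney, the tubule list stood at a median of 8.45 on the P0 array and at 1.41, 1.18 and 0.018 on organoid arrays 1, 2 and 3. By this median organoid array 3 lay close to E11.5 kidney. Over 12 tubule genes at least 32-fold brighter at P0 than at E11.5, the organoid signal, with any signal that E11.5 kidney also had, was a median of 0.757%, 0.530% and 0.203% of the P0 signal on organoid arrays 1, 2 and 3. When this share of the P0 signal was subtracted from each organoid array, an alternative chosen after the data were seen, 2952 genes were higher and 2544 lower, and the tubule list held 2 higher and 3 lower genes. Kap was then at 1.67 (adjusted p = 0.00247, range over the alternatives 0.00203 to 0.0223) and Miox at -1.03 (adjusted p = 0.0663, range over the alternatives 0.00428 to 0.0663). The differences of Myog, Myl1 and Acta2 were then 6.75, 6.86 and 3.72. The share subtracted was set from the tubule genes themselves, so the smaller number of higher tubule genes was built in. Myog and Myl1 stood at -7.33 and -7.25 on the P0 array, so the subtraction could hardly move them. Where the tubule RNA came from was not tested.

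Genes of dividing cells were lower in organoids. Of 31 genes of DNA replication and mitosis, all tested, 28 were lower and none higher by limma (0 at an unadjusted p under 0.05), with a median of -1.06 (-0.91, -1.15 and -1.04 on the organoid arrays). Top2a, the topoisomerase of dividing cells, stood at 3.55 in the kidney and at 2.01, 1.98 and 1.81 in the organoids (-1.62 ± 0.13, 3.07-fold, adjusted p = 0.000968). Mki67, which encodes the Ki-67 antigen, was at 5.18 and at 3.79, 3.84 and 3.64 (-1.42 ± 0.13, 2.67-fold, adjusted p = 0.00124). Cdk1, the mitotic kinase, was at 3.44 and at 2.26, 2.12 and 1.96 (-1.33 ± 0.14, 2.52-fold, adjusted p = 0.00165), with differences over its probes from -2.15 to -0.27. The organoid arrays lay close together for each of these genes and all below the kidney. Plk1 (-1.56 ± 0.13, 2.96-fold), Bub1b (-1.63 ± 0.13, 3.09-fold) and the spindle motor gene Kif11 (-1.57 ± 0.14, 2.97-fold) were lower by like amounts, and Aurkb, above background on 2 of 3 organoid arrays, differed by -2.84 ± 0.86, a call lost without organoid replicate 2.

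**Figure D3:**
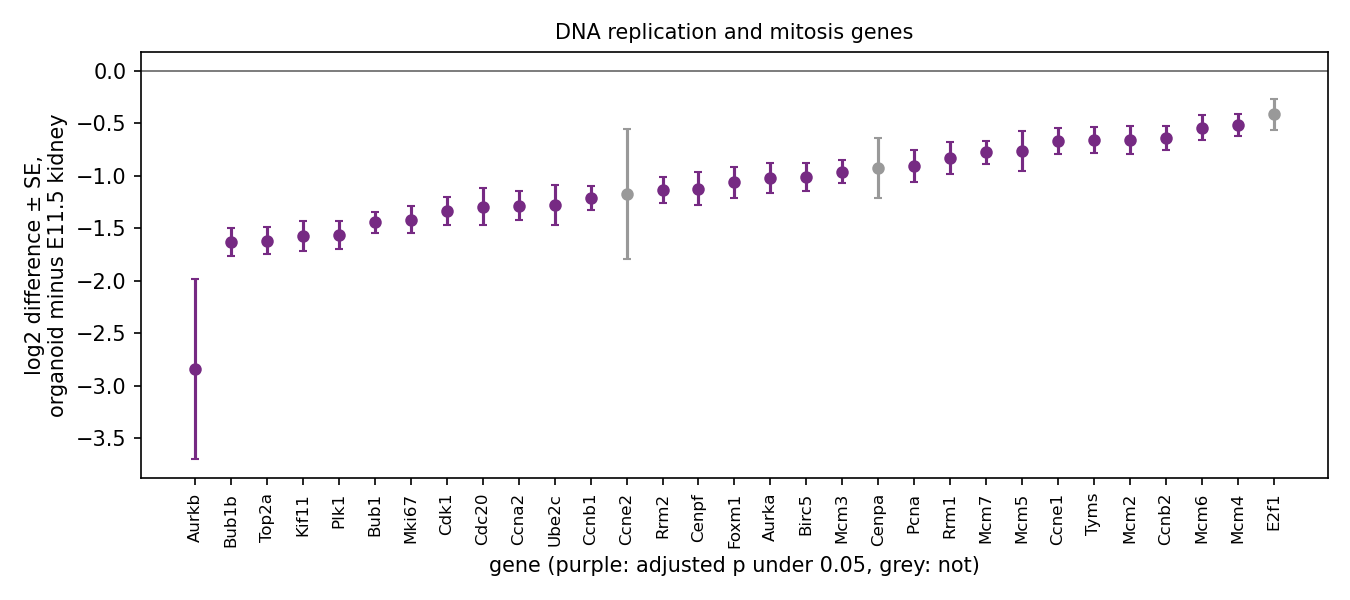
Log2 difference between uncultured organoids and E11.5 kidney (y axis, with the standard error of the fit as bars) for the 31 genes of DNA replication and mitosis (x axis, ordered by difference). All lie below 0, and the 28 in purple passed the test.

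Many mitotic promoters hold CCAAT boxes. Many also hold the CHR element (TTTGAA), and it is the CHR through which they are silenced in resting cells. The 3 named genes whose promoter holds a CHR within 30 bases of the start are shown, 120 bases each from RefSeq (GRCm38.p6), 5′ to 3′ on the gene's strand and ending at the base before the start, with both motifs in capitals on either strand (TTCAAA and ATTGG are the reverse strand). Top2a lies at chr11:99024190-99024309 on the minus strand, Cdk1 at chr10:69352913-69353032 on the minus strand and Kif11 at chr19:37376262-37376381 on the plus strand.
Top2a: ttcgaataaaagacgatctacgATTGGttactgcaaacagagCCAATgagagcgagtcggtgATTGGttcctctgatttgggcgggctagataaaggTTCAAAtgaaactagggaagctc
Cdk1: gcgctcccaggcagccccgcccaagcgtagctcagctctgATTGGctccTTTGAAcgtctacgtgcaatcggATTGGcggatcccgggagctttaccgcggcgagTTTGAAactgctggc
Kif11: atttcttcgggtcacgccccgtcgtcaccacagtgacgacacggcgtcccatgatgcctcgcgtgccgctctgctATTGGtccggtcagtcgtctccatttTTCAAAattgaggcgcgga
The CHR lies at -23 to -18 in Top2a, at -15 to -10 in Cdk1 (with a second at -71 to -66) and at -19 to -14 in Kif11, and a CCAAT box lies upstream of it in each, at -58 to -54, -48 to -44 and -45 to -41. Over the 250 bases before the start, CCAAT was found for 22 of the 26 tested genes of the list with a promoter in the table (84.6%) and in 33.8% of all windows, and the CHR for 8 of 26 (30.8%) and in 16.0%. These matches describe sequence and were not tested as causes.

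Genes that brake the cell cycle were in part higher. Of 17 tested p53 targets and CDK inhibitors 7 were higher and none lower by limma, 0 at an unadjusted p under 0.05 (median 0.46). Trp53inp1, a stress-induced p53 partner, was at 2.08 in the kidney and at 3.69, 3.81 and 3.78 in the organoids (1.69 ± 0.11, 3.22-fold, adjusted p = 0.000626). Btg2 (1.28 ± 0.15, 2.42-fold), Gadd45a (1.24 ± 0.12, 2.36-fold) and Ccng1 (1.16 ± 0.16, 2.24-fold) were higher too. The core targets Cdkn1a, which encodes p21 (0.66 ± 0.31, adjusted p = 0.149), and Mdm2 (0.061 ± 0.11, adjusted p = 0.681) did not pass.

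**Figure D4:**
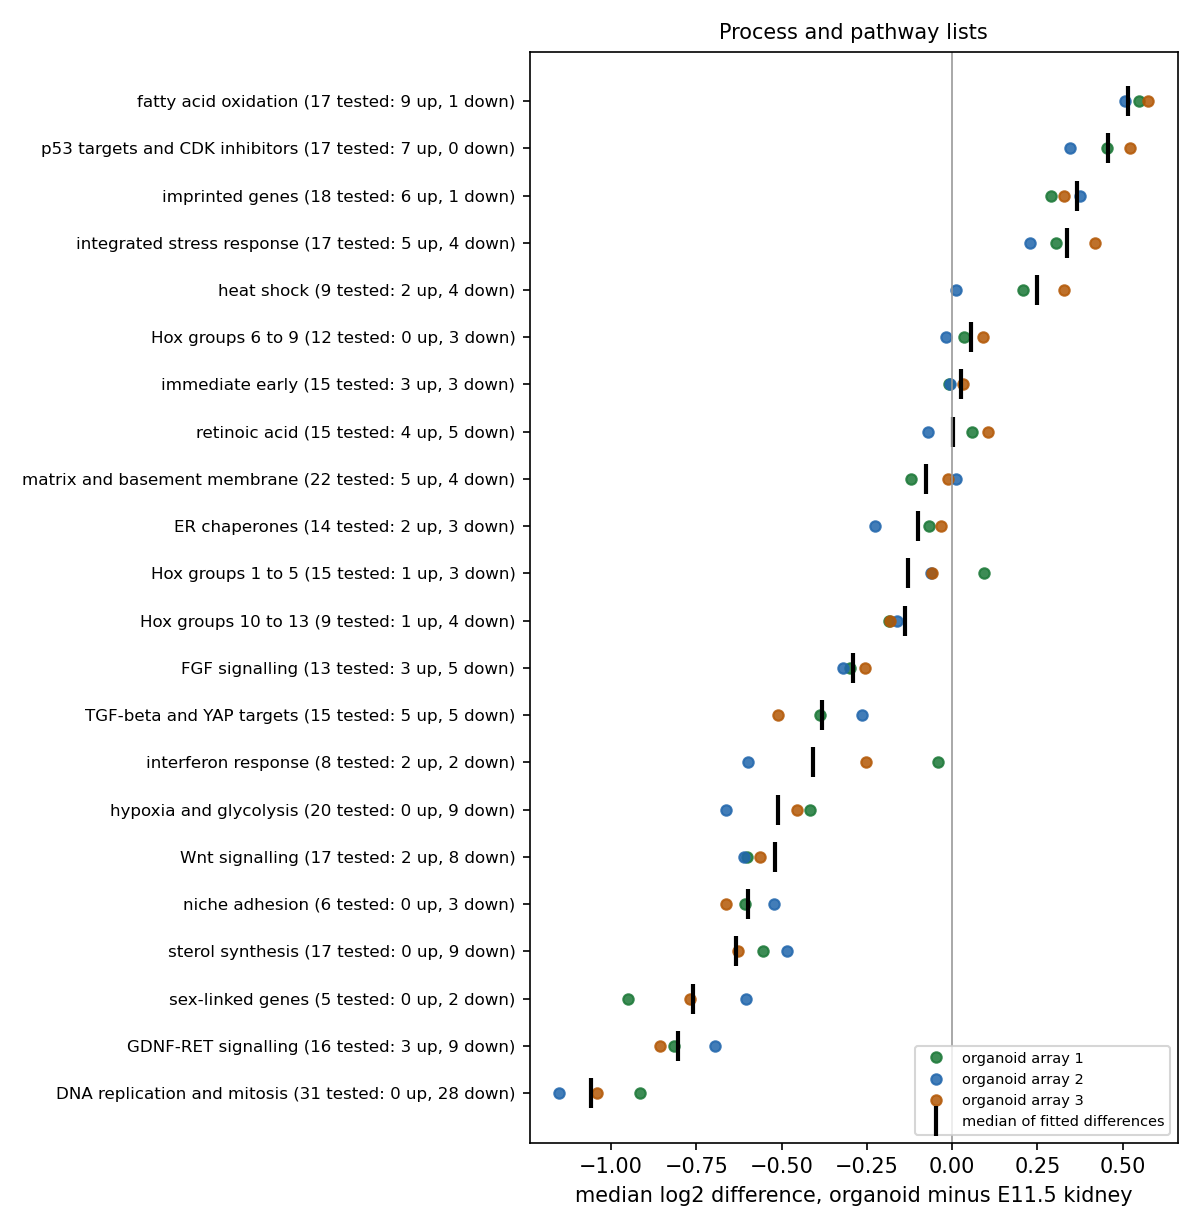
Median log2 difference between uncultured organoid arrays and the E11.5 kidney array (x axis) over the tested genes of each process or pathway list (y axis, with counts of genes that passed the test), with 1 dot for each organoid array and a bar for the median of the fitted differences. Replication and mitosis (-1.06) lies lowest and fatty acid oxidation (0.51) highest.

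Genes of fatty acid use were more often higher, and those of glycolysis and sterol synthesis lower. Of 17 tested genes of fatty acid oxidation 9 were higher and 1 lower (median 0.51), the lower one being Ucp2 (-0.58, lost without organoid replicate 1 or 2). Cpt1a, the gate of mitochondrial fatty acid import, stood at 0.59 in the kidney and at 2.61, 2.67 and 2.77 in the organoids (2.09 ± 0.11, 4.26-fold, adjusted p = 0.000401). Pdk4, which turns glucose carbon away from the mitochondrion, was at -3.19 and at -1.47, -0.92 and -1.20 (1.99 ± 0.21, 3.98-fold, adjusted p = 0.00185). All 3 organoid arrays lay above the kidney for both genes. In the list of hypoxia and glycolysis 9 of 20 were lower and none higher by limma, 0 at an unadjusted p under 0.05 (median -0.51). Hk2, a hexokinase, was at 2.01 and at -0.063, 0.14 and -0.070 (-2.01 ± 0.19, 4.03-fold, adjusted p = 0.00139), and Ldha (-1.22 ± 0.17, 2.33-fold), Eno1 (-1.03 ± 0.12, 2.04-fold) and the glucose transporter Slc2a1 (-0.92 ± 0.18, 1.90-fold) were lower. Sterol synthesis had 9 lower and none higher of 17 by limma, 0 at an unadjusted p under 0.05 (median -0.63), among them Idi1 (-1.31 ± 0.14, 2.48-fold) and Dhcr7 (-1.11 ± 0.15, 2.15-fold).

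Immediate early genes, which cells switch on within minutes of handling or growth signals, were mixed, 3 higher and 3 lower of 15 tested. Fos was at -4.54 in the kidney and at -1.30, -1.33 and -1.07 in the organoids (3.31 ± 0.26, 9.91-fold, adjusted p = 0.000922). Egr1 (2.05 ± 0.21, 4.13-fold) and Egr2 (1.68 ± 0.32, 3.22-fold) were higher as well, but Jun did not pass (-0.26 ± 0.12, adjusted p = 0.151), and Klf2, a gene that endothelium also expresses (-1.93 ± 0.21, 3.82-fold), and Myc (-1.36 ± 0.093, 2.57-fold) were lower, with Nr4a1 (-0.72, lost without any 1 organoid array). In the integrated stress response 5 of 17 genes were higher and 4 lower, with 3 higher without organoid replicate 1 or 3. Nupr1, a stress-induced nuclear protein, was at -3.97 and at -1.41, -1.67 and -1.45 (2.46 ± 0.15, 5.50-fold, adjusted p = 0.000538), while Asns, asparagine synthetase (0.34 ± 0.16, adjusted p = 0.159) and Trib3 (-0.20 ± 0.21, adjusted p = 0.481) did not pass. The other higher genes were Ddit3 (1.06, lost without organoid replicate 1 or 3), Vldlr (1.14), Ddit4 (1.06, lost without organoid replicate 1 or 3) and Aldh1l2 (1.20) and the lower ones Atf4 (-0.44, lost without organoid replicate 1 or 2), Psat1 (-0.72), Phgdh (-0.84) and Mthfd2 (-1.14).

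Shares of matrix genes that passed were near those of all genes. Of 22 matrix genes 5 were higher and 4 lower (22.7% and 18.2%, beside 17.46% and 15.53% of all genes, with a median of -0.075). Fbln5, an elastic fibre protein, was at 1.33 in the kidney and 2.86, 2.85 and 3.14 in the organoids (1.62 ± 0.16, 3.08-fold, adjusted p = 0.00144), and the interstitial collagens Col1a1 (0.64 ± 0.12) and Col6a1 (0.99 ± 0.10) were higher with it. The basement membrane genes Lama5 (-1.38 ± 0.19, 2.60-fold) and Col4a1 (-0.72 ± 0.16, 1.64-fold) were lower. The other higher genes were Eln (0.55) and Fbn1 (0.84) and the other lower ones Col4a2 (-0.55, lost without any 1 organoid array) and Vcan (-0.55, lost with the mean of probes). Fn1 did not pass (0.028 ± 0.16, adjusted p = 0.905). Among TGF-beta and YAP targets 5 were higher and 5 lower of 15, with the ligand Tgfb2 higher (3.34 against 4.54, 4.77 and 4.82, 1.36 ± 0.15, 2.57-fold) and Tgfb1 lower (-0.96 against -3.17, -3.70 and -3.05, -2.35 ± 0.36, 5.09-fold). The matrix protein gene Postn was lower (-1.61 ± 0.22, 3.05-fold). The other higher genes were Ccn2 (0.79, lost without organoid replicate 1 or 3), Ccn1 (0.96), Tgfbi (0.85, lost without organoid replicate 2) and Tgfb3 (0.61) and the other lower ones Ltbp2 (-1.96, lost without organoid replicate 1, of opposite sign with normexp), Skil (-0.78) and Smad7 (-0.73).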

How the data were processed

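Expression was measured on 12 one-colour Agilent mouse arrays, and 3 uncultured organoid arrays were compared with 1 E11.5 kidney array. The deposited scanner files hold intensity values per spot, background-subtracted by Agilent Feature Extraction (10.7.3.1 per the submitters' processing notes, 11.5.1.1 per the file headers). RNA was amplified from low input before Cy3 labelling, per the labels. The values deposited by the authors as a separate table are on a log2 scale, differ from the values used here by a constant of 0.0050 to 0.0096 per array (column medians -4.03 to -3.66), and served as an alternative. Here log2 of the processed intensity minus each array's 75th percentile was used, control and outlier spots were left out, and spots of a probe were averaged.

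A RefSeq gene table gave names to probes, 28026 of 55681 through an accession, 3418 through a symbol and 295 through a synonym, while 1876 kept the name in the file and 22066 stayed unnamed. Each gene stood on 1 probe, its brightest on average over all 12 arrays. Genes entered the test if all arrays of the organoid group or the kidney array were well above background. Limma (3.58.1, R 4.3.3) was fitted to 8 arrays in 4 groups, which added the cultured E11.5 kidney and 3 organoids cultured for 7 days, with 4 residual degrees of freedom. Tests were two-sided and adjusted over all 17167 genes. For a gene below background on every array of a group, the fold is a bound, the bright group's mean against the higher of the dim value and the lowest signal well above background. The script was tested on simulated data. No array was saturated at any probe, and the number of arrays limits the precision.

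The text names 12 genes each way by size of change, the first 3 genes of each of 42 lists and up to 4 further members with the largest difference, and the 5 genes each way in which organoid replicate 3 stood apart. Genes beyond this rule, named to complete counts of 5 or fewer, were chosen after their values were seen. Some genes that this rule or these counts include are not reported here. The members and lists were chosen with earlier results of these data known. Several lists share genes. Alternatives were normexp (offset 50), quantile and median scaling, the authors' table, the mean of probes, stricter and no background filters, the 4 arrays alone, trend and robust eBayes, a 2-fold threshold, slide as a block, slide 1 alone, the replicate numbers as a block, leaving out each organoid array, and subtraction of P0-like signal, the last chosen after the data were seen.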

Additional observations from a re-analysis of the deposited data

How the results depend on the processing

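Without 1 organoid array the counts ran from 2308 to 3436 higher and from 2236 to 2877 lower genes, against 2997 and 2666. The 4 arrays of both groups alone gave 1421 higher and 1707 lower genes, slide 1 alone 812 and 1419, and a 2-fold threshold 737 and 1396. Normexp gave 6552 higher genes and no background filter 5511, with medians of all genes of 0.14 and 0.19 against 0.036, and scaling to the array median gave 0.13. Organoid replicate numbers were also used for cultured organoids, and as a replicate block gave 1553 higher genes and 1836 lower. Same-numbered organoids did not deviate together over all genes (correlations of -0.048, -0.11 and -0.029), and no organoid correlated best with its own number. Such correlations over few arrays cannot show whether same-numbered organoids shared a culture or a batch. With normexp the differences of 544 of the 5663 called genes changed sign, among them Slc22a8 (0.084, adjusted p = 0.431, range over the alternatives 0.000741 to 0.431). The sign also turned with normexp for Cyp26a1 at 0.28, Hyou1 at 0.0044, Ifi44 at 0.33, Itga2b at 0.13, Lfng at 0.093, Ltbp2 at 0.023 and Plce1 at 0.12, and with the mean of probes for Dpf3 at -0.42, Fgf1 at 0.023, Hsp90aa1 at 0.15, Tdgf1 at 0.44 and Kdr at -0.99, and for Miox at -1.03 with P0-like signal subtracted. Of the 216 named genes that passed the test, 8 lost their call with normexp, 16 with the mean of probes, 14 with array median scaling, 14 with no background filter, 5 with quantile normalization, 7 with trend and robust eBayes, 8 with P0-like signal subtracted, 34 with slide as a block, 47 with the replicate block, 54 on the 4 arrays alone, 80 on slide 1 alone, 71 at a 2-fold threshold and 24 to 35 without 1 organoid array, with the same sign in each case. Why these values moved was not tested. The dimmer organoid arrays limit the measurement of genes lower in organoids, for which bounds were given. The other counts of all genes stayed within 1.5 times the counts given.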

Other observations

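Hox genes passed the test about as often as all genes, 12 of 36 (33.3%) beside 32.99%, but the directions were uneven. Of the 36, 27.8% were lower and 5.56% higher, beside 15.53% and 17.46% of all genes. Of 9 tested genes of Hox groups 10 to 13, which pattern the posterior body and the kidney, 1 was higher and 4 lower (median -0.14). Hoxd10 stood at 1.62 in E11.5 kidney and at 1.56, 1.53 and 1.88 in organoids and did not pass the test (0.042 ± 0.16, adjusted p = 0.857). Hoxd13, the most posterior gene of its cluster, was at 0.090 and at 1.72, 1.70 and 1.68 (1.61 ± 0.46, 3.05-fold, adjusted p = 0.0394), a call lost without any 1 organoid array. Groups 6 to 9 had 0 higher by limma (1 at an unadjusted p under 0.05) and 3 lower of 12, among them Hoxb8 (-1.13 ± 0.15, 2.19-fold), and groups 1 to 5 had 1 higher and 3 lower of 15, among them Hoxb4 (-0.65 ± 0.14). The other lower genes were Hoxa11 (-0.59), Hoxc11 (-1.32), Hoxd11 (-1.03, with probes from -1.03 to 0.015) and Hoxd12 (-0.77, lost without organoid replicate 3) in groups 10 to 13, Hoxa7 (-0.83) and Hoxb7 (-0.59) in groups 6 to 9 and Hoxb1 (-5.06) and Hoxd3 (-0.82) in groups 1 to 5, where Hoxa2 (0.41, lost without organoid replicate 1 or 3, lost with the mean of probes) was higher. The size for Hoxb1 was uncertain, from -5.11 to -0.95 over the alternatives.

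Imprinted genes, which are expressed from 1 parental copy, included 6 higher and 1 lower of 18 tested (median 0.36). H19, a growth-restricting noncoding RNA, was at 8.46 in the kidney and at 9.49, 9.33 and 9.58 in the organoids (1.0 ± 0.13, 2.0-fold, adjusted p = 0.00358). Phlda2, another growth regulator, was at -4.55 and at -2.72, -3.0 and -2.72 (1.74 ± 0.17, 3.34-fold, adjusted p = 0.0015), and Igf2, the neighbour of H19, did not pass (0.37 ± 0.12, adjusted p = 0.0521). Grb10, which restrains insulin signalling, was the lower gene (-0.98 ± 0.16, 1.97-fold).

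Over lists of 5 other embryonic cell types 9 of 35 tested genes passed (25.7%, beside 32.99% of all genes). In the pluripotency list 1 was higher and 1 lower of 10 tested (median -0.084). The lower one was Tdgf1 (-0.93, lost without organoid replicate 1, of opposite sign with the mean of probes) and the higher one was Nanog, at -0.53 in the kidney and 1.15, 0.87 and 1.01 in the organoids (1.54 ± 0.17), but its 2 probes above background gave -1.26 and 1.54, and the call was lost with the mean of probes. The endoderm factor Foxa2 had the same split, 4.10 ± 0.47 by the probe used and -2.37 and 4.10 over its 2 probes above background. Cdx1 was the other tested gene of gut and liver, lower (-2.91, at least 4.76-fold, from -3.00 to -0.26 over the alternatives). It was not well above background on any organoid array. Of 10 somite genes 3 were lower, Meox2 (-1.23 ± 0.20, 2.34-fold), Tcf15 (-2.83) and Lfng (-2.74, of opposite sign with normexp), and none higher by limma (0 at an unadjusted p under 0.05). Of 8 cartilage and bone genes 1 was higher, Sp7 (0.77), and 1, Col2a1, lower (-1.19 ± 0.16), with 3 lower without organoid replicate 2. None of 5 gonad and adrenal genes passed by limma (0 higher and 0 lower at an unadjusted p under 0.05).

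Of 8 podocyte genes 1 was higher and 2 were lower, Podxl (-1.78 ± 0.35, 3.44-fold, lost with normexp) and Plce1 (-1.07, of opposite sign with normexp). The stress-induced chaperone Hspa1a was higher (-4.22 against -2.12, -2.27 and -2.42, 1.95 ± 0.25, 3.86-fold) in a heat shock list with 2 higher and 4 lower of 9 (the others Hspa8 (0.38, lost without organoid replicate 1 or 3, lost with normexp, lost with the mean of probes, with probes from -0.18 to 0.38), Hsph1 (-0.61), Hsp90aa1 (-0.47, of opposite sign with the mean of probes), Hspe1 (-0.48, lost without organoid replicate 1) and Hspd1 (-0.75)), and the secretory factor Xbp1 was lower (-0.75 ± 0.17) in a list of ER chaperones with 2 higher and 3 lower of 14, the others being Dnajb9 (0.77, lost with the mean of probes, with probes from 0.17 to 0.77) and Sel1l (0.78), Hsp90b1 (-0.71) and Hyou1 (-0.44, lost without organoid replicate 1 or 3, of opposite sign with normexp). Of 8 interferon genes 2 were higher and 2 lower, namely H2-K1 (0.56, lost without organoid replicate 1 or 3, lost with the mean of probes, with probes from 0.031 to 0.69) and H2-D1 (0.90, lost without organoid replicate 3), and Rsad2 (-3.14, from -3.36 to -0.63 over the alternatives) and Ifi44 (-2.36, of opposite sign with normexp). Xist, expressed from the inactive X chromosome, stood at 0.0058 in E11.5 kidney and -1.31, -0.75 and -1.45 in organoids, and the Y-linked gene Ddx3y at 0.71 and -0.24, 0.11 and -0.014, both above background on all 4 arrays. Of 5 sex-linked genes 2 were lower, Xist (-1.18 ± 0.26) and Ddx3y (-0.76 ± 0.15).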
